A study of Mus musculus with 2 samples.

Results

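Tachykinins are a small family of neuropeptides that share the same C-terminal end and act on 3 G-protein-coupled receptors. The system was described here by 5 genes across the cell classes of the mouse locus coeruleus: the precursor genes Tac1 and Tac2 and the receptor genes Tacr1, Tacr2 and Tacr3. They were taken by symbol, without regard to their level, and are 5 of the 32285 features counted. 3 of the 5 (Tac1, Tacr1 and Tacr3) had UMIs in each library, and Tac2 and Tacr2 had none.

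Tac1 codes for substance P and neurokinin A, and Tac2 for neurokinin B. Substance P binds best to the NK1 receptor (Tacr1), neurokinin A to the NK2 receptor (Tacr2) and neurokinin B to the NK3 receptor (Tacr3). All 3 receptors couple to Gq, which activates phospholipase C and releases calcium from stores, and in the rodent locus coeruleus substance P is known to excite the noradrenergic neurons. The locus coeruleus is the main noradrenergic nucleus of the brain, and its neurons lie beside the large sensory neurons of the mesencephalic trigeminal nucleus.

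The study has a single group: wild-type C57BL/6N mice aged 3 to 4 weeks, of both sexes, from which the locus coeruleus was dissected. The 2 droplet libraries (batch 1 and batch 2, called library 1 and library 2 here) are its replicates, and nothing given with them says how many mice each pooled. Papain dissociation with methanol fixation and a sort of isolated nuclei are both described, without saying which was used for which library, so "cell" below means a cell or a nucleus. Comparisons were made between cell classes within the libraries, not between conditions.

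Library 1 held 304 barcodes with a median of 11010 UMIs and library 2 held 2796 with a median of 1517, so that a barcode of library 1 was much deeper. The series text gives 2578 cells; the files hold 3100 barcodes, of which 2973 were kept. No barcode was shared between the libraries. Cells were put into classes by a gate on the UMIs of marker genes, and no tachykinin gene is among the markers. The gate gave 309 neurons and 1575 non-neuronal cells and left 1089 cells (36.6%) unassigned, 965 of which fell into neuronal clusters when the same marker genes were clustered. These cells carried many Tacr1 UMIs, and values by cluster are therefore given beside those of the gate where the class rule matters.

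The classes are described here by their defining genes. The gate used these same genes, so their levels follow from the rule and are no check of it. The 89 noradrenergic-like cells had UMIs of 7 of 7 noradrenergic markers in each library, summing to 8936 and 6729 CPM (counts of the gene scaled to a fixed total of UMIs in the class), against 52.7 and 34.6 CPM in all other gated neurons. The 44 mesencephalic trigeminal-like cells had UMIs of 5 of 6 markers, among them Piezo2 and Prph, while Runx3 had none. UMIs summed over the 60 excitatory-like cells covered all 4 excitatory markers, and those summed over the 44 inhibitory-like cells all 4 inhibitory ones. For each class above a marker counted as found from the UMIs of the class, and a single cell need not hold every marker. The oligodendrocyte precursor-like class was mixed: 127 of its 218 cells lay in neuronal clusters.

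The precursor genes are shown by the stretches of coding sequence that end in the shared tachykinin C-terminus, since this is what makes them members of the family. Each stretch has 36 bases of spliced coding sequence on the plus strand of GRCm38 (GENCODE M21 transcripts), with the 15 bases of the common C-terminal end in capitals and the codon of the amidation glycine after them. In Tac1 the substance P stretch is at chr6:7556732-7556767, in 3 of 4 coding transcripts. The neurokinin A stretch is at chr6:7557743-7559133, across an intron, in 2 of 4. In Tac2 the neurokinin B stretch is at chr10:127728476-127729148, across an intron, in 2 of 2.
Tac1, substance P: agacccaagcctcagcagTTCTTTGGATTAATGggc
Tac1, neurokinin A: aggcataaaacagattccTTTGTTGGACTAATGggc
Tac2, neurokinin B: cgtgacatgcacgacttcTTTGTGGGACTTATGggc

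All 5 genes are protein-coding, on the plus strand, and overlap no other annotated gene. Tac1 spans chr6:7554879-7565834 and Tac2 chr10:127724478-127731768. The receptor genes are Tacr1 at chr6:82402334-82560104 (158 kb), Tacr2 at chr10:62252438-62265990 and Tacr3 at chr3:134829007-134934579 (106 kb). The libraries read transcripts from the 3′ end, so the counts do not tell the Tac1 transcripts with and without the neurokinin A stretch apart.

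Over all barcodes, Tac1 had 401 UMIs (277 in library 1 and 124 in library 2). Tacr1 had 495 UMIs (239 and 256), and Tacr3 had 184 (107 and 77). Tac2 and Tacr2 had 0 of 12496073 UMIs, which allows a level of up to 0.24 CPM over both libraries, so neurokinin B and NK2 receptor transcripts were not detectable at this depth. Tac4, which codes for the hemokinins and was taken along as the other gene of the precursor family, had 1 UMI in library 1 and 0 in library 2. The transcripts found in this dissection were thus those of 1 precursor gene and 2 receptor genes.

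The UMIs of these 3 genes lay in neurons. Cells of neuronal clusters held 97.2% of the kept cells' Tac1 UMIs, 98.8% of the Tacr1 UMIs and 93.2% of the Tacr3 UMIs. They also held most UMIs of all genes, 4590080 of 5525727 in library 1 and 4367026 of 6429542 in library 2. Among gated cells, Tac1 stood at 93.6 and 27.6 CPM in neurons, against 7.48 and 4.06 CPM in non-neuronal cells (library 1 and library 2, here and below). Tacr1 stood at 32.5 and 40.8 CPM in neurons and at 5.34 and 8.92 CPM in non-neuronal cells, and Tacr3 at 30.9 and 32.2 CPM in neurons and at 6.41 and 3.65 CPM in non-neuronal cells. For each gene the level was higher in neurons in both libraries.

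In edgeR's quasi-likelihood test on UMIs summed by class and library, with the library as a block, all 3 genes were higher in neurons than in non-neuronal cells. The log2 fold was 3.02 ± 0.35 (SE) for Tac1 (adjusted p = 0.00499), 2.16 ± 0.32 for Tacr1 (adjusted p = 0.00918) and 2.59 ± 0.41 for Tacr3 (adjusted p = 0.0102). In this comparison 37.3% of 12161 genes tested were called, 16.9% higher and 20.3% lower. The fit rests on 4 sums, and edgeR estimates the spread in large part from all genes together. A small p therefore does not show that the libraries agree on a gene. In library 1 and library 2 alone the folds were 3.49 and 2.37 for Tac1, 2.41 and 1.94 for Tacr1, and 2.12 and 2.71 for Tacr3. Of the 27 Tacr1 UMIs in gated non-neuronal cells, 22 came from oligodendrocyte precursor-like cells, and all 22 from such cells inside neuronal clusters; with clusters in place of the gate the Tacr1 fold was 4.75, and those of Tac1 and Tacr3 were 3.29 and 2.03, all 3 called.

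Among the 10 gated classes that held 5 or more cells in both libraries, Tac1 was highest in excitatory-like neurons. Its level was 245 and 113 CPM there (mean 179 ± 92.9, SD, n = 2), from 140 and 15 UMIs. By the mean, mesencephalic trigeminal-like neurons followed with 146 and 38.5 CPM (92.1 ± 75.7), from 106 and 18 UMIs. The ranges of the 2 libraries overlapped between these classes, and in both classes library 1 was the higher.

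In the other 8 of these classes Tac1 was at 49.4 CPM or below. That highest value, in cerebellar granule-like cells of library 2, came from 1 UMI and exceeded the 38.5 CPM of trigeminal-like cells there. A class below that size, the 3 cholinergic-like cells of library 2, stood at 214 CPM, from 8 UMIs in a single cell. Inhibitory-like neurons had 5.55 and 0 CPM (1 and 0 UMIs) and noradrenergic-like neurons 1.00 and 0 CPM (1 and 0 UMIs). With 0 UMIs the exact 95% Poisson interval reached 35.8 CPM in the inhibitory-like cells and 5.19 CPM in the noradrenergic-like cells of library 2. Oligodendrocyte-like cells, which should not make the peptide, had 4.71 and 3.34 CPM, so the noradrenergic-like level was at or below that in a cell type taken as background.

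**Figure D1:**
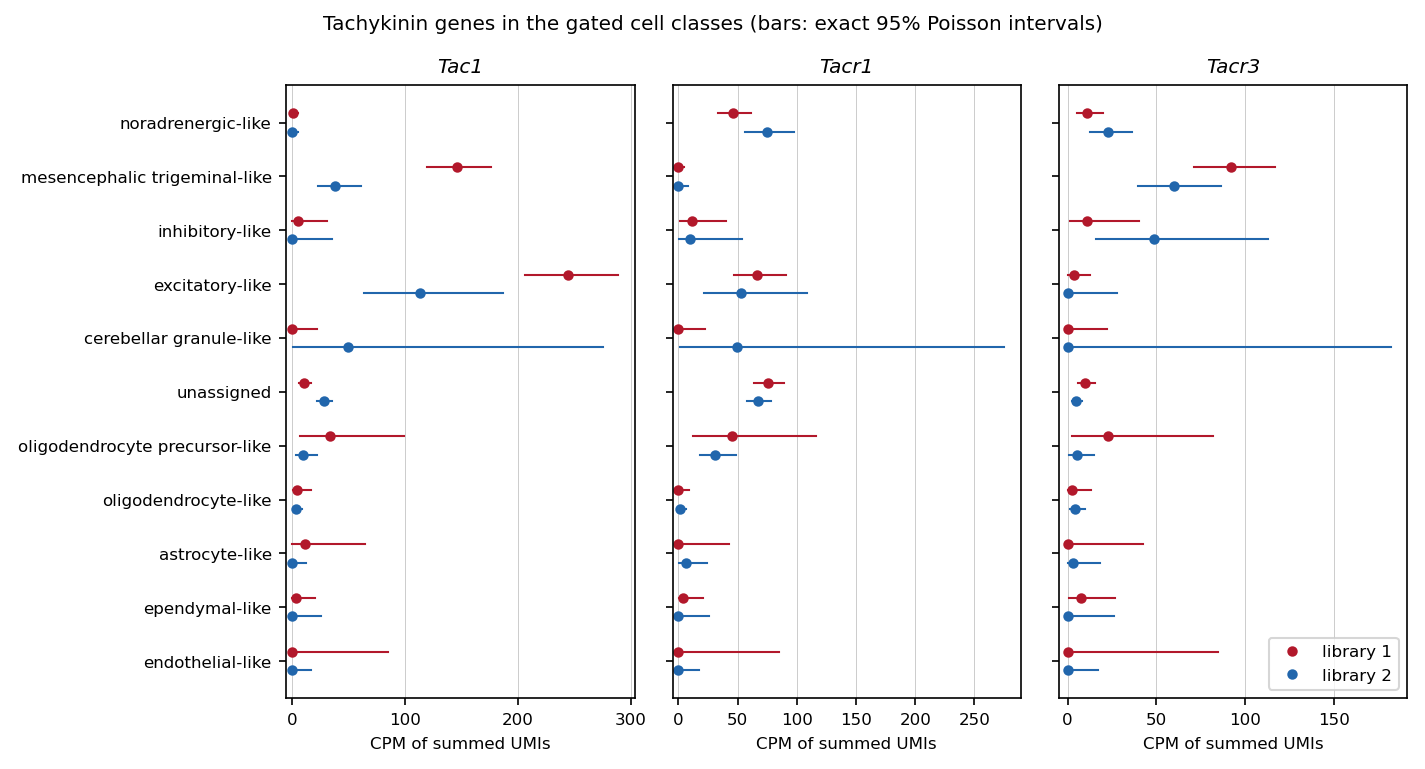
Level of Tac1, Tacr1 and Tacr3 in each gated class with at least 5 cells in each library, and in the unassigned cells, as CPM of the summed UMIs; each point is 1 library and each bar its exact 95% Poisson interval, which covers counting error only. By the mean of the libraries Tac1 is highest in excitatory-like and then mesencephalic trigeminal-like cells. In library 2 the cerebellar granule-like cells, with 1 UMI, stand above the trigeminal-like ones. Tacr3 is highest in mesencephalic trigeminal-like cells. Tacr1 is at 0 CPM in mesencephalic trigeminal-like cells and at 46.0 and 74.5 CPM in noradrenergic-like cells.

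Tac1 was carried by a minority of excitatory-like cells. It was found in 8 of 27 cells of library 1 and 7 of 33 cells of library 2. The cell with most held 46 of the 140 UMIs of library 1, while in the shallower library 2 no cell held more than 5. In mesencephalic trigeminal-like cells it was found in 8 of 11 and 13 of 33 cells, with at most 27 and 3 UMIs in a cell. The share of oligodendrocyte-like cells with a UMI was 2 of 39 and 4 of 729. Thinned to 1000 UMIs per cell, 5 of 27 and 5 of 33 excitatory-like cells kept a Tac1 UMI (18.5% and 15.2%), against 1 of 39 and 3 of 576 oligodendrocyte-like cells (2.56% and 0.521%).

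Most gated neurons with a Tac1 UMI carried Slc17a6, a vesicular glutamate transporter of hindbrain neurons. Of 18 such cells in library 1, 15 had a UMI of Slc17a6 and of no inhibitory marker; 1 had an inhibitory marker alone and 2 had both. Of 22 such cells in library 2, 15 had Slc17a6 alone, 1 an inhibitory marker alone, 1 both and 5 neither. Mesencephalic trigeminal-like cells made up 8 and 13 of these, and 8 and 11 of them had Slc17a6 alone. Of the 10 and 9 other gated neurons with a Tac1 UMI, 7 and 4 had Slc17a6 alone. Of gated neurons without a Tac1 UMI, 17 of 71 and 33 of 198 had Slc17a6 alone. For trigeminal-like cells without a Tac1 UMI this was 2 of 3 and 15 of 20, and for the other gated neurons 15 of 68 and 18 of 178. Among cells of neuronal clusters other than the noradrenergic-like and trigeminal-like ones, 9 of 18 in library 1 had Slc17a6 alone, 4 an inhibitory marker alone, 3 both and 2 neither. In library 2, at a median of 2640 UMIs per cell, 14 of 57 had Slc17a6 alone, 9 an inhibitory marker alone, 2 both and 32 neither. Of the cells of these clusters without a Tac1 UMI, 57 of 150 and 177 of 1053 had Slc17a6 alone. Slc17a6 is also a marker of the excitatory gate, so the gated counts are not independent of the class.

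Inhibitory-like neurons had far less Tac1 than excitatory-like neurons. With 1 and 0 UMIs against 140 and 15, the ratio of their pooled levels was 0.0161 (exact counting interval 0.000404 to 0.0908). The edgeR log2 fold was -5.61 ± 0.77 (adjusted p = 4.53e-11), in a comparison where 4.99% of 3129 genes tested were called, 1.98% higher and 3.00% lower. The fold was -4.56 in library 1 and -2.93 in library 2. Tac1 stayed called with clusters in place of the gate, at -4.62, and at -3.33 against every cluster led by Slc17a6. Scg2, which codes for secretogranin II of the dense-core vesicle, and Plcb1, a phospholipase C that Gq activates, were the 2 of 23 pathway genes tested that fell, and none rose. The log2 fold was -0.99 ± 0.29 for Scg2 (edgeR, adjusted p = 0.0171) and -1.04 ± 0.31 for Plcb1 (adjusted p = 0.0234), with -1.91 in library 1 and 0.03 in library 2 for Plcb1. With clusters Scg2 stayed called (-0.96) and Plcb1 did not (-0.44, adjusted p = 0.225), and DESeq2 called neither.

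The receptors could not be tested between the gated classes, since their sums were under the filter on low counts. Tacr1 had 3 UMIs in inhibitory-like cells and 45 in excitatory-like cells, a ratio of 0.166 with an exact counting interval of 0.033 to 0.517. Tacr3 had 7 UMIs in inhibitory-like cells and 2 in excitatory-like cells, a ratio of 8.71 with an exact counting interval of 1.66 to 85.9. With clusters in place of the gate the ratio of Tacr3 was smaller, at 2.32 (0.76 to 8.39), from 12 and 5 UMIs, and its interval spanned equality. That of Tacr1 was 0.30 (0.152 to 0.557), from 14 and 45 UMIs, and edgeR called it lower in the inhibitory-like cluster (log2 fold -1.72 ± 0.47, adjusted p = 0.00705). These intervals cover counting error only and not the spread between libraries.

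Tacr1, the gene of the substance P receptor, was present in noradrenergic-like neurons at 46.0 and 74.5 CPM (60.3 ± 20.1, SD, n = 2), from 46 and 53 UMIs. Excitatory-like neurons had 66.4 and 52.8 CPM (59.6 ± 9.59), from 38 and 7 UMIs. These 2 classes did not differ beyond their spread. Inhibitory-like neurons had 11.1 and 9.71 CPM, and mesencephalic trigeminal-like neurons had 0 UMIs in either library, with Poisson intervals up to 5.07 and 7.90 CPM.

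The gene was spread over most noradrenergic-like cells of library 1. It had a UMI in 11 of 13 cells of library 1 and in 35 of 76 cells of library 2, with at most 7 and 4 UMIs in a cell. In excitatory-like neurons it was found in 8 of 27 and 6 of 33 cells, with at most 11 and 2 UMIs. The noradrenergic-like cells were deep (median 80143 and 7654 UMIs) beside the excitatory-like ones (19034 and 3644), which raises the share of cells with a UMI. Thinned to 1000 UMIs per cell, 0 of 13 and 5 of 74 noradrenergic-like cells kept a Tacr1 UMI, against 0 of 39 and 1 of 576 oligodendrocyte-like cells.

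**Figure D2:**
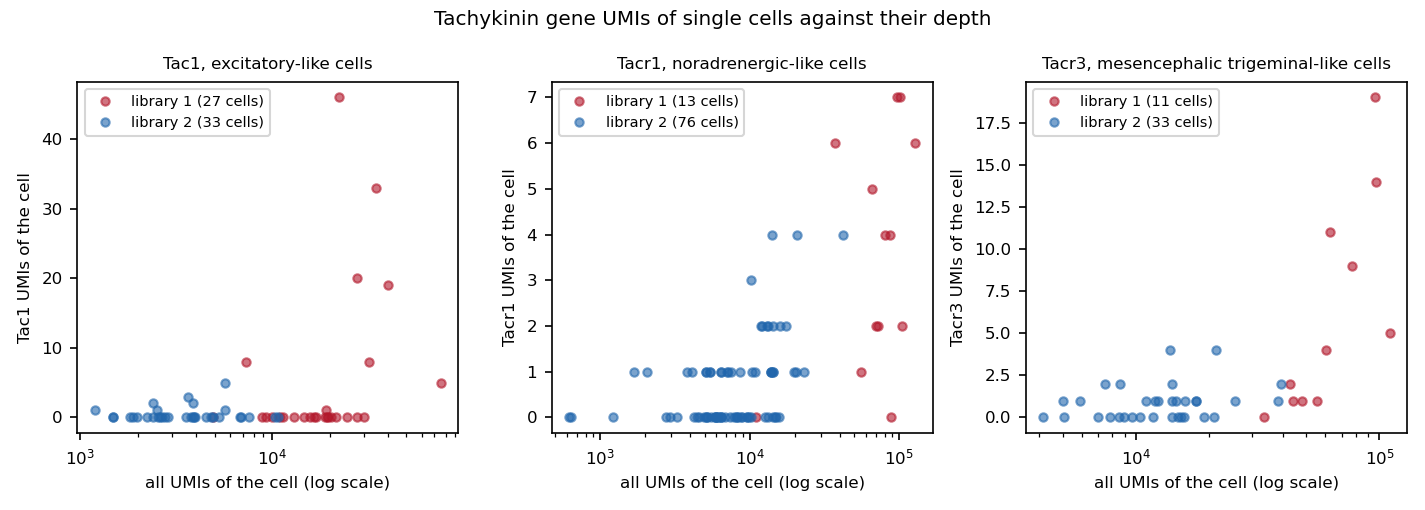
UMIs of a tachykinin gene in single cells (vertical axis) against all UMIs of the cell (horizontal axis, log scale): Tac1 in excitatory-like, Tacr1 in noradrenergic-like and Tacr3 in mesencephalic trigeminal-like cells, coloured by library. Tac1 reaches 46 UMIs in a cell while most excitatory-like cells of like depth have none; Tacr1 and Tacr3 reach 7 and 19 UMIs, in the deep cells of library 1.

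Tacr1 was not confined to the classes the gate could name. The unassigned cells held 147 and 165 Tacr1 UMIs, at 75.8 and 67.5 CPM, and 64.7% of the Tacr1 UMIs in neuronal clusters came from them. For Tac1 that share was 23.1% and for Tacr3 18.3%. Unassigned cells were 965 of the 1428 cells of neuronal clusters, and all cells of these clusters together had 51.6 and 55.9 CPM of Tacr1. The 5 cells with most Tacr1 UMIs in library 1 (12 to 19 each) were all unassigned, and so was the top cell of library 2, with 11.

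Clusters of the marker genes located these cells. Among clusters with at least 5 cells in each library, Tacr1 was highest in unnamed neuronal cluster 11, whose leading genes Meg3, Cntn5 and Celf4 are neuronal but not of a class, at 260 and 130 CPM. Neuronal cluster 12, which carried Slc17a6 and Lhx9 along with Slc5a7 and Chat of cholinergic neurons, had 152 and 146 CPM (149 ± 4.85), in 9 of 25 and 10 of 63 cells. Neuronal cluster 14 had 148 and 39.5 CPM. All 3 exceeded the noradrenergic-like cluster, at 47.3 and 74.4 CPM, in library 1, and clusters 11 and 12 did so in library 2 as well. In cluster 11 of library 1 the level rests on 8 cells, of which 1 held 60.0% of the UMIs, and in cluster 14 of library 1 a single cell held 76.0%.

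For Tac1 the clusters gave the same first 2 classes as the gate by the mean of the 2 libraries. The excitatory-like cluster, led by Lmx1b and Lmx1a, transcription factors of a hindbrain glutamate lineage, had 291 and 86.2 CPM, in 7 of 19 and 28 of 152 cells. The mesencephalic trigeminal-like cluster had 146 and 31.5 CPM. In library 2 neuronal clusters 12 and 14 stood above it, at 49.8 and 39.5 CPM, while in library 1 they had 2.24 and 11.8 CPM. Neuronal cluster 15 had 103 and 25.5 CPM. Cluster 11, with most Tacr1, had 10.4 and 27.6 CPM of Tac1, and the noradrenergic-like cluster 1.53 and 1.38 CPM.

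**Figure D3:**
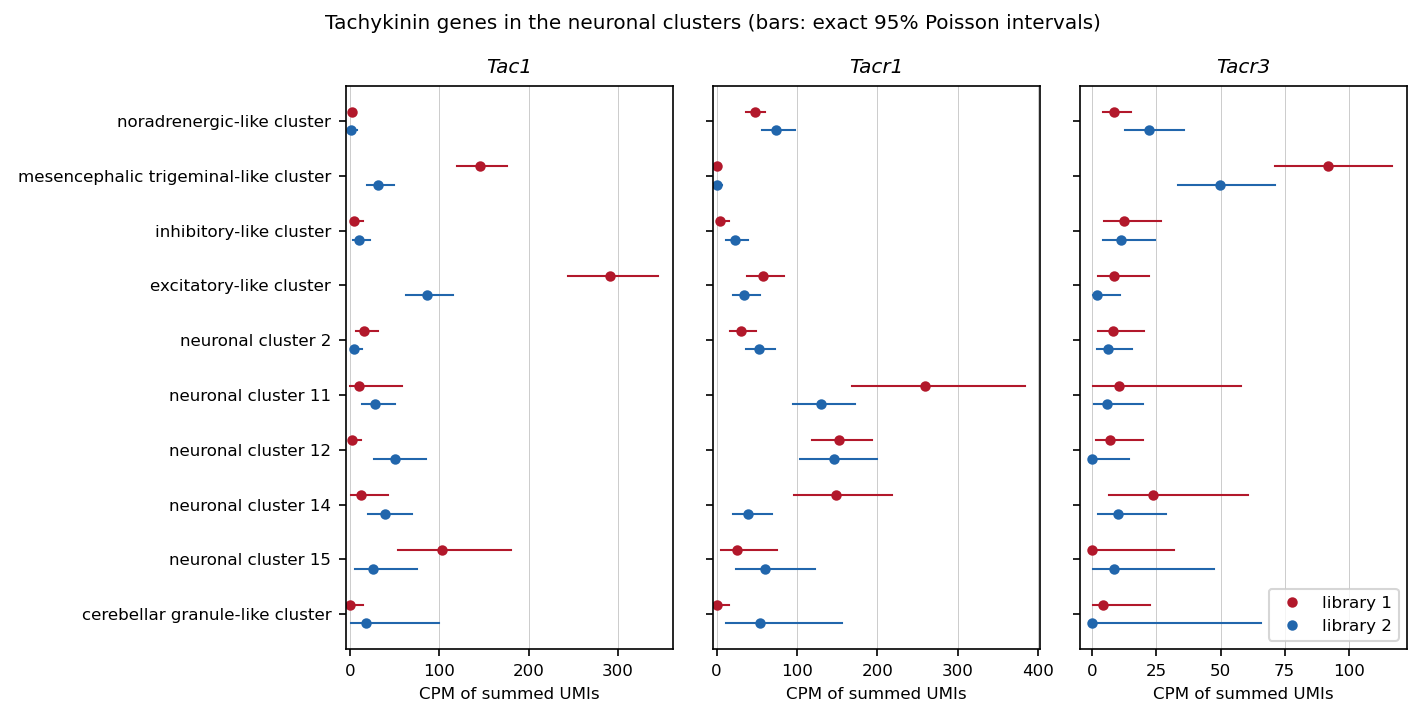
Level of Tac1, Tacr1 and Tacr3 in each neuronal cluster with at least 5 cells in each library, as CPM of the summed UMIs; each point is 1 library and each bar its exact 95% Poisson interval (counting error only). Tacr1 is higher in neuronal clusters 11 and 12 than in the noradrenergic-like cluster in both libraries, and Tacr3 stands highest in the mesencephalic trigeminal-like cluster.

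Tacr3, the gene of the neurokinin B receptor, was highest in mesencephalic trigeminal-like neurons. Its level was 92.1 and 60.0 CPM there (76.0 ± 22.7, SD, n = 2), from 67 and 28 UMIs in 10 of 11 and 18 of 33 cells. Inhibitory-like neurons had 11.1 and 48.5 CPM, from 2 and 5 UMIs, and noradrenergic-like neurons 11 and 22.5 CPM (16.8 ± 8.12), from 11 and 16 UMIs. Excitatory-like neurons had 3.50 and 0 CPM. The trigeminal-like level was above every other class in each library, while the ranges of the inhibitory-like and noradrenergic-like classes overlapped. In library 2 the interval of the inhibitory-like cells (15.8 to 113 CPM) spanned it. By cluster, Tacr3 was again highest in the trigeminal-like one, at 92.1 and 49.8 CPM, while the inhibitory-like cluster had 12.3 and 11.2 CPM, the noradrenergic-like one 8.39 and 22.0 CPM and the excitatory-like one 8.57 and 1.92 CPM.

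In noradrenergic-like neurons Tacr3 was found in 6 of 13 and 6 of 76 cells. A single cell held 10 of the 16 UMIs of library 2, or 62.5%. Oligodendrocyte-like cells had 2.36 and 4.18 CPM, in 1 of 39 and 5 of 729 cells at median depths of 9819 and 1436 UMIs. Thinned to 1000 UMIs, 0 of 11 and 1 of 33 mesencephalic trigeminal-like cells kept a Tacr3 UMI, so a thinned share says nothing of this gene at that depth.

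For the 3 pairs given first here, cells with UMIs of both genes were about as many as the product of the shares of cells with each gene gives. The exception among them was Tacr1 and Tacr3 in noradrenergic-like cells of library 2. In mesencephalic trigeminal-like neurons Tac1 and Tacr3 both had a UMI in 8 of 11 cells of library 1, where 8 had Tac1 and 10 had Tacr3 (7.27 from the product), and in 7 of 33 cells of library 2, where 13 had Tac1 and 18 had Tacr3 (7.09). Tacr1 and Tacr3 met in 5 of 13 and 5 of 76 noradrenergic-like cells (5.08 and 2.76). In excitatory-like cells Tac1 and Tacr1 met in 3 of 27 and 1 of 33 cells (2.37 and 1.27). These products leave out that deep cells show more genes, and no test was made of the counts. By cluster the 3 pairs met in 8 and 7, in 5 and 5, and in 3 and 2 cells. Some other pairs and groups lay further from the product. Over all cells of neuronal clusters, which pool classes, Tac1 and Tacr3 met in 14 and 9 cells (4.88 and 2.46 from the product). Tacr1 and Tacr3 met there in 14 and 6 cells (8.36 and 4.83), and Tac1 and Tacr1 in 9 and 4 (6.69 and 8.27).

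Mesencephalic trigeminal-like neurons were then set against the other gated neurons without the noradrenergic-like ones. Tacr3 was higher, with 92.1 and 60.0 CPM against 4.33 and 14.6 CPM, and an edgeR log2 fold of 3.37 ± 0.47 (adjusted p = 1.56e-05). 36.1% of 7871 genes tested were called in this comparison and 18.3% were called higher. The Tacr3 fold lay between 2.98 and 3.72 under every other tool, scaling, filter and class rule run, always called, and was 3.79 in library 1 and 1.70 in library 2 alone.

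Tacr1 was lower in mesencephalic trigeminal-like neurons, with 0 and 0 UMIs against 40 and 9. Over both libraries this is at least 15.4-fold lower, taking 3 counts as the limit of 0. The edgeR test called it (adjusted p = 2.95e-05), and DESeq2 did not (adjusted p = 0.408). 17.8% of the genes tested were called lower.

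For Tac1 the 2 groups had 146 and 38.5 CPM in mesencephalic trigeminal-like neurons and 153 and 70.3 CPM in the other neurons. The log2 fold of -0.34 ± 0.27 (95% interval -0.87 to 0.19) was not called by edgeR (adjusted p = 0.354). It turned with the class rule: a stricter gate gave 1.03 (adjusted p = 0.0374), and clusters with the gated noradrenergic cells gave 0.81 (adjusted p = 0.0333). The stricter gate kept 11 and 4 excitatory-like cells, in place of 27 and 33. In single libraries the fold under the main gate was -0.08 and -0.83. By cluster, trigeminal-like cells had 146 and 31.5 CPM, against 58.8 and 26.6 CPM in all cells of neuronal clusters, themselves included. The excess by cluster thus lay mainly in library 1.

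Noradrenergic-like neurons, the cells the dissection was made for, were set against all other gated neurons. Tac1 was lower, with 1 and 0 UMIs against 247 and 42, a pooled ratio of 0.00498 (exact counting interval 0.000126 to 0.0279). The edgeR log2 fold was -7.31 ± 0.57 (adjusted p = 2.74e-35), and the fold stayed between -5.43 and -7.53 and called in every alternative fit; it was -5.97 in library 1 and -4.40 in library 2 alone. In this comparison 30.6% of 9250 genes tested were called, 15% higher and 15.7% lower, and all 3 tachykinin genes tested were among them.

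For the receptors the calls depended on which neurons stood on the other side. Tacr1 had 46.0 and 74.5 CPM in noradrenergic-like neurons, against 24.2 and 11.1 CPM in the other gated neurons, a log2 fold of 1.57 ± 0.32 by edgeR (adjusted p = 1.05e-05), with 0.80 in library 1 and 2.44 in library 2 alone. Of the UMIs of those other neurons, 44.1% and 57.8% came from mesencephalic trigeminal-like cells, which held none of the 40 and 9 Tacr1 UMIs. Against inhibitory-like and excitatory-like neurons alone the Tacr1 fold was 0.19 ± 0.33 (adjusted p = 0.729). With clusters in place of the gate, which bring in the unassigned neurons, it was 0.11 ± 0.22 (adjusted p = 0.774), and DESeq2 on the gated sums gave 1.72 (adjusted p = 0.0886).

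Tacr3 had 11 and 22.5 CPM in noradrenergic-like neurons, against 43.0 and 40.8 CPM in the other gated neurons, a log2 fold of -1.44 ± 0.37 by edgeR (adjusted p = 0.000555), with -1.91 in library 1 and -0.84 in library 2 alone. Mesencephalic trigeminal-like cells held 67 of the 71 and 28 of the 33 Tacr3 UMIs on that side. Against inhibitory-like and excitatory-like neurons alone the sign turned, to 0.47 ± 0.62 (adjusted p = 0.631). With clusters the fold was -0.60 ± 0.51 (adjusted p = 0.435), and DESeq2 on the gated sums gave -1.45 (adjusted p = 0.264). The marker list of the mesencephalic trigeminal neurons summed to 9.01 and 16.9 CPM in noradrenergic-like cells, against 1012 and 1436 CPM in the other gated neurons. The astrocyte list, with 5 of 7 markers found in each library, summed to 148 and 115 CPM in noradrenergic-like cells, against 407 and 403 CPM in the other neurons; astrocyte-like cells themselves had at most 11.5 CPM of Tac1, 6.63 of Tacr1 and 3.31 of Tacr3.

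**Figure D4:**
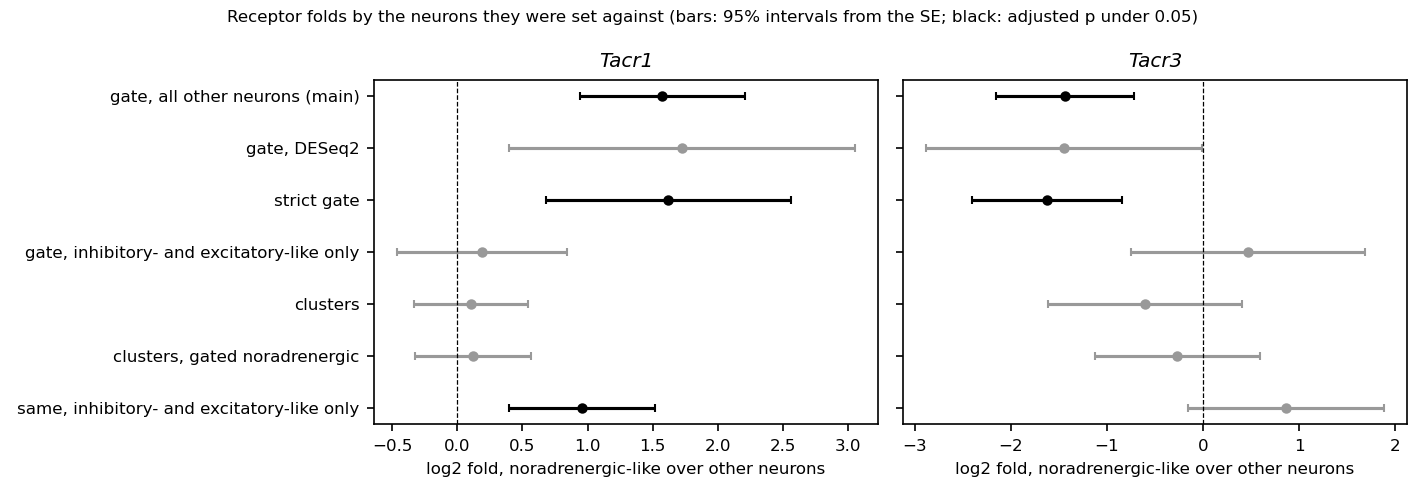
Log2 fold of Tacr1 and Tacr3, noradrenergic-like over other neurons, by the class rule, the tool and the neurons on the other side; points are fitted folds, bars are 95% intervals from the SE, and black marks an adjusted p under 0.05. The Tacr1 fold is 1.57 against all other gated neurons and 0.19 against inhibitory-like and excitatory-like ones, and the Tacr3 fold is -1.44 and 0.47.

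The genes that make, break down and act beyond tachykinins were read from a list of 36 genes, of which 31 could be tested between noradrenergic-like and other neurons. 10 were higher (32.3%), 5 were lower (16.1%) and 16 were not called, beside 15% higher and 15.7% lower over all genes tested, so the share of lower genes was at the background. The median log2 fold was 0.33, against 0.01 over all genes tested. DESeq2 called 4 higher and 4 lower, and edgeR without the library block 5 and 4. Against inhibitory-like and excitatory-like neurons alone, 6 of 30 were higher and 6 lower. Of the 9 genes of precursor processing and storage, 3 were higher and 1 was lower. Chgb, which codes for chromogranin B of the peptide granule, had 690 and 835 CPM in noradrenergic-like neurons and 279 and 218 CPM in the others (log2 fold 1.58). Pcsk2, a prohormone convertase, was higher by 0.61, and Cpe, the carboxypeptidase that trims the cut peptides, was lower, at -0.87. Pcsk2 was not called with clusters (0.23, adjusted p = 0.357, edgeR), nor Cpe against inhibitory-like and excitatory-like neurons alone (-0.41, adjusted p = 0.130).

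The genes of Gq and phospholipase C signalling moved both ways. Of the 8 genes tested, 3 were higher, 3 were lower and 2 were not called. Prkce, a calcium-independent protein kinase C, had 19.0 and 8.44 CPM in noradrenergic-like neurons, against 689 and 679 CPM in the others (log2 fold -5.60). Plcb1, a phospholipase C activated by Gq, had 53.1 and 39.4 CPM, against 352 and 273 CPM (log2 fold -2.78). Prkca, a conventional protein kinase C, went the other way, with 630 and 800 CPM in noradrenergic-like neurons and 144 and 158 CPM in the others (log2 fold 2.20). Both libraries showed each of these directions. Over the genes named from the list in this comparison the SE of the log2 fold was 0.20 to 0.69, and the adjusted p (edgeR) was 0.0124 or lower.

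Among the genes that end receptor signalling, Rgs4, which speeds the shut-off of G proteins, was higher, with 178 and 217 CPM in noradrenergic-like neurons, against 56.3 and 52.0 CPM (log2 fold 1.81). Grk3, a kinase that desensitises receptors, was higher by 1.47. Trigeminal-like cells, a large part of the other neurons, were themselves lower in Grk3 than the rest (log2 fold -2.19, edgeR, adjusted p = 0.000392). Ace, a peptidase that can cleave substance P, had 13.0 and 16.9 CPM against 2.42 and 2.47 CPM (log2 fold 2.48), the latter from few UMIs. The list of ion channels on which tachykinin receptors act held 6 genes of channel complexes and Src, a tyrosine kinase that links them to the receptors. Unc80, a subunit of the sodium leak channel complex, was lower, at -0.66. Kcnj6, a G-protein-gated potassium channel subunit, had 121 and 131 CPM in noradrenergic-like neurons, against 91.5 and 53.2 CPM in the other gated neurons, and was called higher by 0.76. Trigeminal-like cells had 5.50 and 6.42 CPM of Kcnj6, and the other neurons without them had 159 and 117 CPM. Against inhibitory-like and excitatory-like neurons alone the Kcnj6 fold was 0.29 (adjusted p = 0.394, edgeR) and with clusters 0.04 (adjusted p = 0.879). The other 5 genes of the list were not called.

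In mesencephalic trigeminal-like neurons 2 of 30 pathway genes tested were higher (6.67%) and 12 were lower (40.0%) than in the other neurons, beside 18.3% higher and 17.8% lower over all genes tested, with a median log2 fold of -0.42, against -0.02 over all genes tested. 4 of the 6 channel genes, Kcnj6, Kcnj3, Kcnj9 and Nalcn, were among the lower ones, and so was Src. Kcnj6 had the largest fold of them, at -4.60 ± 0.39 (edgeR, adjusted p = 3e-08). In neurons against non-neuronal cells, 18 of 33 pathway genes were higher (54.5%) and 2 were lower (6.06%), beside 16.9% and 20.3% over all genes tested, and the 9 processing and storage genes were all among the higher ones.

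Within excitatory-like neurons, cells with a Tac1 UMI were set against cells without one. The sums came from 8 against 19 cells in library 1 and 7 against 26 in library 2; inhibitory-like cells with a UMI were too few to enter. With Tac1 itself left out, edgeR called 0 of 3587 genes tested (0%) at an adjusted p of 0.05, while 160 had an unadjusted p under it, and DESeq2 also called 0. Tacr1 differed by -0.16 ± 0.53 (adjusted p = 0.997). None of the 24 pathway genes tested was called. Over all neurons but trigeminal-like ones, by cluster, 40 of 11287 genes tested were called (0.354%), 31 higher (0.275%) and 9 lower (0.0797%). That fit pools classes, and markers of classes were among the 40: Lmx1a of the excitatory-like cluster at 1.60 and Dbh, the noradrenaline-making enzyme, at -1.51. Since the fit within excitatory-like neurons called 0 of 3587 genes, it cannot tell whether any of the 40 differs there.

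The genes whose pattern over classes was most like each member were found by Pearson's r of log2(CPM + 10) over 20 sums, 10 gated classes in 2 libraries, among 9841 genes; sums of 1 library share its depth. For Tac1 they were Slc17a6 (r = 0.80), Bnc2 (0.79), Tafa1 (0.77), Rprm (0.76) and Gm43948 (0.76). For Tacr1 they were Rgs9 (0.88), Minar2 (0.87), Rnf165 (0.87), Nsg2 (0.87) and Zcchc12 (0.86), and for Tacr3 Ndufa1 (0.85), Them6 (0.85), Ak1 (0.84), Rtn2 (0.83) and Gars (0.83). Between the members themselves r was 0.38 for Tac1 and Tacr1, 0.24 for Tac1 and Tacr3 and 0.01 for Tacr1 and Tacr3. Gate markers were left among the genes compared, and Slc17a6 is one of the excitatory gate, so its place follows in part from the classes. The sums leave out the unassigned cells, which held 64.7% of the Tacr1 UMIs in neuronal clusters.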

How the data were processed

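The authors deposited raw counts, as UMIs (unique molecular identifiers) of each gene in each barcode, for 2 libraries. Cell Ranger 6.1.2 made them per the file headers, while the submitters' processing notes name Cell Ranger 7.0, Seurat, mm10 and GRCm38; whether intronic reads were counted is not given in the sources used here. Total counts were 5600693 and 6895380 UMIs, and no barcode had fewer than 4208 and 500.

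Kept cells had 300 or more genes and no more than 20% of mitochondrial UMIs, and the top Scrublet scores were removed (1 and 61 barcodes). A cell took the class whose markers most exceeded their median share in its library, by at least 3 times and 1.5 times the next list. In the alternative, Leiden clusters of the marker genes (scanpy 1.11.5, resolution 1, Python 3.11.15) gave 27 clusters; a cluster counted as neuronal from 3500 CPM of pan-neuronal markers, a limit set after the data were seen. UMIs were summed by class and library and tested with edgeR 4.0.16 (R 4.3.3; TMM, filterByExpr, glmQLFit, glmQLFTest, library as a block, two-sided, Benjamini-Hochberg over all genes tested, threshold 0.05). The block comes from the design, since both classes of a pair are drawn from the same library. DESeq2 1.42.0 was an alternative. The edgeR fit of each comparison under the main gate was also run on simulated data with a fixed spread, and the alternative fits were not. P-values of edgeR rest on a spread between 2 libraries, whose mice are not numbered, that is estimated in large part over all genes together. The spread of a single gene between the libraries thus enters its p-value only in part. Intervals on counts cover counting error only (95%, exact).

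The members, marker and pathway lists were chosen with earlier results of these data known. Named genes were the members, up to 3 called genes of largest fold per pathway list in noradrenergic-like against other neurons, and the 5 genes of highest r per member; the pathway genes named in the other comparisons, Lmx1a, Dbh and the unnamed clusters were singled out after their values were seen. Several class rules were tried, and the gate was kept as the main one although it left many neurons unassigned.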

Additional observations from a re-analysis of the deposited data

How the results depend on the processing

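Of 120 recomputed tachykinin folds, 106 kept their direction and side of the threshold, 10 lost a call and 4 turned. Tac1 in noradrenergic-like against other neurons, all 3 genes in neurons against non-neuronal cells, Tac1 in inhibitory-like against excitatory-like and Tacr3 in mesencephalic trigeminal-like neurons kept their calls in every fit run, TMM and DESeq2-type scaling included. In noradrenergic-like neurons the Tacr1 fold was not called by DESeq2 (1.72), against inhibitory-like and excitatory-like neurons (0.19), with clusters (0.11), with clusters and gated noradrenergic cells (0.12) or without the rest of their cluster (0.11); clusters with gated noradrenergic cells against inhibitory-like and excitatory-like neurons kept it (0.96, adjusted p = 0.00334). The Tacr3 fold in the same 6 settings was -1.45, 0.47, -0.60, -0.27, -0.36 and 0.87, none of them called. In mesencephalic trigeminal-like neurons, Tac1 turned to 1.03 under the stricter gate. It turned to 0.81 with clusters and gated noradrenergic cells, where the excess lay mainly in library 1. For Tacr1 in these neurons DESeq2 gave -6.82 without a call. The settings with gated noradrenergic cells, the clusters led by Slc17a6 and the fit over all neurons but trigeminal-like ones were added after the data were seen.

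DESeq2 called 978 genes for noradrenergic-like, 935 for mesencephalic trigeminal-like, 2438 for neurons and 28 for inhibitory-like cells, against 2835, 2842, 4530 and 156 by edgeR. Without the replicate block the counts were 2025, 2504, 4563 and 68, so that only the last moved by over 1.5 times, and no call on a tachykinin gene changed. In inhibitory-like against excitatory-like cells clusters gave 417 calls and every cluster led by Slc17a6 gave 561. For neurons with a Tac1 UMI the 0 calls became 1 with DESeq2-type scaling, 20 with no filter on low counts, 5 with clusters and 40 over all neurons but trigeminal-like ones. With 1 library left there is no residual degree of freedom, so folds of single libraries have no test. In noradrenergic-like neurons they ran from -5.97 to -4.40 for Tac1, 0.80 to 2.44 for Tacr1 and -1.91 to -0.84 for Tacr3, and in mesencephalic trigeminal-like ones from -0.83 to -0.08, -4.25 to -2.68 and 1.70 to 3.79. In neurons they ran from 2.37 to 3.49, 1.94 to 2.41 and 2.12 to 2.71, and for Tac1 in inhibitory-like cells from -4.56 to -2.93. The stricter gate left too few excitatory-like cells for the inhibitory-like and Tac1 UMI comparisons, which were not run. 11 of 170 levels moved, 6 of them with clusters, and 25 of 120 shares of cells with a UMI, mostly with the depth they were thinned to.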
